A study of Mus musculus with 14 samples.

Results

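The 9 genes described here are Csf1r, its ligands Csf1 and Il34, and 6 genes used to recognise resident macrophages of the gut muscle coat: Cd163, Mrc1, Lyve1, F13a1, Adgre1 and Folr2. They were taken by name from the 40481 genes of the bulk count table, all 9 were found there, and all 9 passed the filter on low counts. The muscularis is the smooth muscle layer of the gut together with the nerves, pacemaker cells and other cells embedded in it. It was taken from the colon and the jejunum of C57BL/6 mice of the genotypes named "Carmn iKO" (KO below) and "WT mTmG" (WT below). Carmn is a long noncoding RNA gene of smooth muscle, and mTmG is an allele that encodes membrane-bound fluorescent reporters. The labels do not say what part of Carmn was removed, in which cells or when, nor whether the KO mice also carried mTmG. Age and treatment are not in the labels either. Each tissue had 3 KO and 3 WT bulk RNA-seq libraries, told apart by the tags m1, t1, t4, t6 and t7, and the colon also had 1 library of single nuclei per genotype, with RNA and accessible chromatin read together.

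CSF1R is the receptor tyrosine kinase on which most tissue macrophages depend for survival, and CSF1 and IL-34 are its ligands. In the muscularis, macrophages lie along the muscle layers and next to the enteric ganglia. They are known to exchange signals with enteric neurons, which are a source of CSF1 and respond to BMP2 from the macrophages. CD163 takes up haemoglobin bound to haptoglobin, MRC1 is the mannose receptor, LYVE1 binds hyaluronan and is also carried by lymphatic endothelium, F13A1 is a subunit of coagulation factor XIII, ADGRE1 is the F4/80 antigen and FOLR2 is a folate receptor.

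The RefSeq promoter table (build GRCm38.p6) matched 5 of the 9 members, and sequences are shown for 4 of them. Csf1 and Mrc1 are shown because their windows lay in accessible regions, and Cd163 and Folr2 as the pair of genes that separated the genotypes in opposite directions. Each line gives the 250 bases before the RefSeq start, 5′ to 3′ on the strand of the gene. Capitals mark exact matches, on either strand, to 6 searched motifs. Of these, GAGGAA and its longer form GAGGAAGT are bound by PU.1, a factor that macrophages need, CAGGAAGT by ETS factors, TGACTCA by AP-1 and TTGCGCAA by C/EBP factors. AGAACA is only a part of the site that the glucocorticoid receptor binds.
Csf1, chr3:107760470-107760719, minus strand: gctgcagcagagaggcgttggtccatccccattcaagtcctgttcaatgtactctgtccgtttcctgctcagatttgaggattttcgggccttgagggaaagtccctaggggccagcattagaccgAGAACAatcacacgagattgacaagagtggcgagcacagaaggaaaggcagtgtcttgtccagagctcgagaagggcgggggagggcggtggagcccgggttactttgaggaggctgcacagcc
Mrc1, chr2:14229164-14229413, plus strand: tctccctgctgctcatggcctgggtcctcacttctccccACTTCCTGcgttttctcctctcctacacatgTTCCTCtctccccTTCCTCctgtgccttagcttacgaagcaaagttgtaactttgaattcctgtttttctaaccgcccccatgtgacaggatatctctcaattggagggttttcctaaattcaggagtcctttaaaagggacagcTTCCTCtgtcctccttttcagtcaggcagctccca
Cd163, chr6:124304401-124304650, plus strand: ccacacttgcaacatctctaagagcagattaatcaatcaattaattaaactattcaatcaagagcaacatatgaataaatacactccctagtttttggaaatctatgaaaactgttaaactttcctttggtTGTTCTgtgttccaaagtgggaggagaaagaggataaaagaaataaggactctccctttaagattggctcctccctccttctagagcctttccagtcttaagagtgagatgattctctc
Folr2, chr7:101857191-101857440, minus strand: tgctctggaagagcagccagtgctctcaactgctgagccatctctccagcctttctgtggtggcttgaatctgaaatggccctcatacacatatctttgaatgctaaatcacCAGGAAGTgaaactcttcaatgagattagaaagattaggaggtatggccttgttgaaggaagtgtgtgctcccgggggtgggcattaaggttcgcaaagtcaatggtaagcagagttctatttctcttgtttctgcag
The Mrc1 window held 3 copies of TTCCTC, the reverse complement of GAGGAA, and 1 of ACTTCCTG, the reverse complement of CAGGAAGT. The Csf1 window held 1 AGAACA, the Cd163 window 1 copy of its reverse complement TGTTCT, and the Folr2 window 1 CAGGAAGT. Folr2 has a second entry, at chr7:101845332-101845581, which held 1 AGAACA and 1 TGACTCA. F13a1 has 2 entries, not shown, of which 1 held a GAGGAA. Over all 32851 promoters of the table, cut to the same length, GAGGAA was found in 23.3%, AGAACA in 16.1%, TGACTCA in 4.46%, CAGGAAGT in 2.69%, GAGGAAGT in 2.44% and TTGCGCAA in 0.164%. GAGGAAGT and GAGGAA overlap by construction, and a match of letters describes the sequence only.

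Of the remaining members with no sequence shown, Il34 lies at chr8:110741829-110805924, Lyve1 at chr7:110850607-110863239, F13a1 at chr13:36867178-37050244 and Adgre1 at chr17:57358691-57483527 (GRCm38). Exons of Il34 overlap Gm15894 and Gm15895, those of F13a1 overlap Gm30489 and those of Folr2 overlap Gm10602, so part of their counts is uncertain.

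The windows shown for Csf1 and Mrc1 lay in accessible regions that the authors had called in colon nuclei. All 250 bases of the Csf1 window lay in a region of the WT library, and 247 of them in a region of the KO library. The Mrc1 window lay wholly in a region of the WT library, and no region within 500 bases of an annotated Mrc1 start was listed for the KO library. In macrophage-like nuclei of the WT library the Mrc1 region had 6 counts from 3 of 75 nuclei, which is 87.4 per 1000000 region counts of those nuclei, against 23.2 in fibroblast-like nuclei (3 counts), 22.9 in enteric neuron-like nuclei (8 counts), 22.1 in the unnamed clusters (10 counts) and 3.20 in smooth muscle-like nuclei (2 counts) on the same scale. In the WT library the Csf1 region had 113.8 per 1000000 in interstitial cell of Cajal-like nuclei (6 counts from 3 nuclei) and 85.2 in fibroblast-like nuclei (11 counts). Mesothelial-like nuclei had 72.2 (21 counts) and macrophage-like nuclei 29.1 (2 counts). In the KO library its highest value was 192.5 per 1000000 in fibroblast-like nuclei, from 22 counts, and interstitial cell of Cajal-like nuclei had 0 counts. Within 2000 bases of a start, regions were listed for Csf1, Mrc1 and Folr2 in the WT library and for Csf1, Cd163 and Folr2 in the KO library. Regions were called separately in each library, so a missing entry also depends on that library's depth.

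In the bulk data, library totals ran from 24254905 to 44315104 counts. Carmn itself did not follow its label: it had 304 to 718 counts per 1000000 counts (CPM) in the KO colon libraries against 171 to 351 in WT colon, and 817 to 996 in KO jejunum against 206 to 326 in WT jejunum. The genotypes are therefore written as the libraries are labelled. Levels below are CPM after TMM scaling, a correction for differing library composition. KO colon t4 and KO jejunum m1 had the highest values of most macrophage genes in their tissue. KO colon t4 also had 696.6 CPM summed over 6 neutrophil genes, against 7.93 to 41.8 in the other 5 colon libraries. The labels do not say which libraries came from 1 mouse or were processed together, so the p-values measure the spread between these libraries.

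Csf1r, the receptor, had 78.2, 99.0 and 113.2 CPM in WT colon (t1, t6 and t7) and 97.9, 211.6 and 78.5 in KO colon (m1, t4 and t6). In WT jejunum it had 67.3, 83.5 and 51.4 CPM, and in KO jejunum 203.3, 113.1 and 149.1 (m1, t1 and t4). The colon groups overlapped, whereas every KO jejunum library lay above every WT jejunum library. The fitted log2 fold change (KO minus WT) was 0.42 (SE 0.35, edgeR adjusted p = 0.646) in colon and 1.20 (SE 0.36, edgeR adjusted p = 0.190) in jejunum. The jejunum difference was 2.30-fold and did not pass the threshold of 0.05. Without KO colon t4, the colon value of Csf1r was -0.13. Csf1r lies at chr18:61100598-61132149 (GRCm38), where its exons overlap those of Hmgxb3. Counts from the shared bases may belong to either gene, since no source used here states whether the counting used strand.

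Csf1, the ligand most tissues use, had 63.5, 57.8 and 77.7 CPM in WT colon and 59.7, 91.0 and 40.1 in KO colon. In jejunum it had 84.1, 87.3 and 103.8 CPM in WT and 45.2, 72.4 and 79.0 in KO. The jejunum groups did not overlap and the KO libraries were the lower ones, opposite in direction to the receptor, and the fitted value was -0.48 (SE 0.29, edgeR adjusted p = 0.495). The colon groups overlapped (-0.06, SE 0.29, edgeR adjusted p = 0.956). Mesothelial-like nuclei of the colon held 34.6% of the Csf1 RNA counted in nuclei, and in bulk jejunum 1 of 5 tested mesothelial markers had a positive log2 fold change, with a median of -0.54. The full list held 6 mesothelial markers, of which 5 were tested. Summed over the list, the levels were 421.3 to 1112 CPM in KO jejunum and 781.8 to 1579 in WT jejunum. Upk3b, a uroplakin gene and 1 of the 5, had 136.4 to 218.7 CPM in KO jejunum against 336.9 to 685.2 in WT jejunum (-1.52, SE 0.46, edgeR adjusted p = 0.198). In colon 1 of the same 5 markers was positive too, with a median of -0.71, whereas the Csf1 groups overlapped there (-0.06). The part of these markers in the Csf1 values was not tested in either tissue. Il34, the second ligand, was the least abundant member in WT tissue per length of exon, with 2.60 ± 0.32 CPM per kb in WT colon (SD, n = 3) and 2.07 ± 0.64 in WT jejunum. Its 12 values lay between 2.69 and 8.26 CPM and overlapped in both tissues. Its log2 fold changes were 0.42 (SE 0.36) in colon and 0.48 (SE 0.37) in jejunum, and neither passed the threshold.

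**Figure D1:**
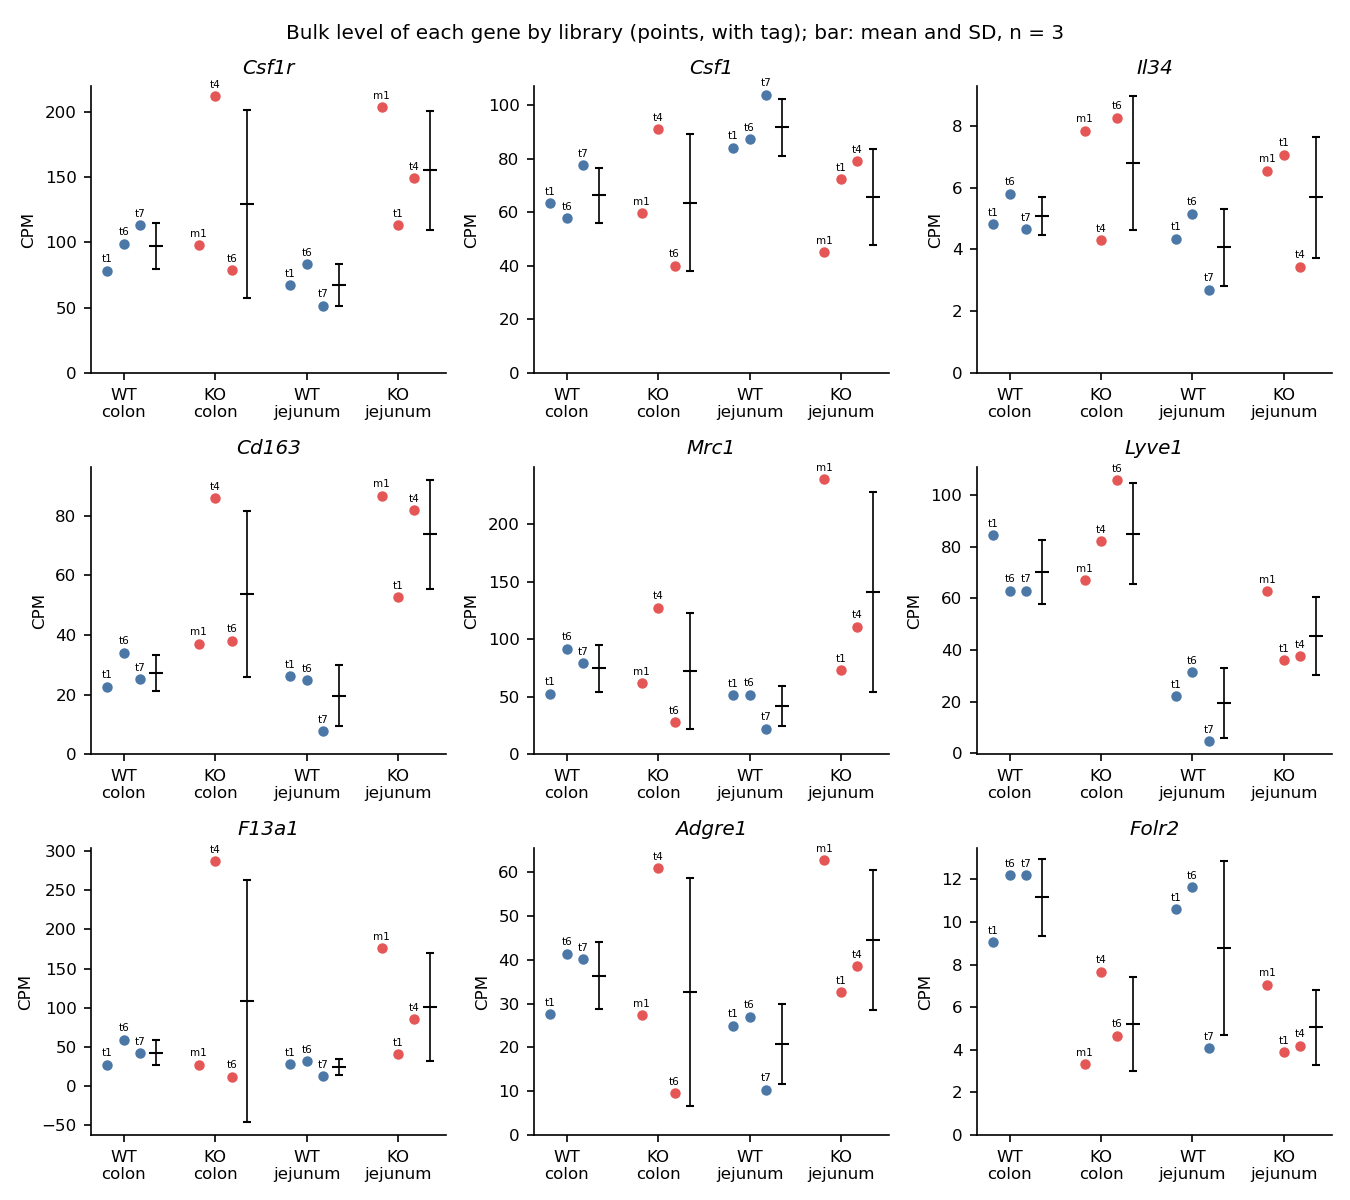
CPM of each of the 9 genes (y axis, linear) in the 12 bulk libraries, with 1 panel per gene. Points are libraries with their tags, and black bars give the mean and SD of 3 libraries. In jejunum Csf1r, Cd163, Mrc1, Lyve1, F13a1 and Adgre1 of the KO libraries all sat above the WT libraries, while in colon F13a1 reached 287.1 in KO t4 and 11.9 to 59.3 in the other 5 libraries.

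Of the macrophage genes, Cd163 and Folr2 separated the genotypes in colon, in opposite directions. Cd163 had 22.6, 34.1 and 25.1 CPM in WT colon and 37.1, 86.1 and 38.1 in KO colon. In jejunum it had 26.1, 24.8 and 7.73 CPM in WT and 86.8, 52.7 and 81.9 in KO. All KO values exceeded all WT values within each tissue, and the log2 fold changes were 0.98 (SE 0.45, edgeR adjusted p = 0.353) in colon and 1.92 (SE 0.46, edgeR adjusted p = 0.125) in jejunum. Folr2 had 9.05, 12.2 and 12.2 CPM in WT colon against 3.32, 7.67 and 4.66 in KO colon, so that every KO library lay below every WT library. The fit gave -1.10 for Folr2 in colon (SE 0.43, edgeR adjusted p = 0.265). In jejunum Folr2 had 10.6, 11.6 and 4.08 CPM in WT and 7.06, 3.90 and 4.19 in KO, which overlapped through WT t7 (-0.80, SE 0.43, edgeR adjusted p = 0.451).

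The ratio of Cd163 counts to Folr2 counts needs no library scaling, and the libraries with high macrophage values did not stand apart in it. It was 2.49, 2.79 and 2.05 in WT colon and 2.46, 2.14 and 1.90 in WT jejunum. In the KO libraries it was 11.2, 11.2 and 8.18 in colon and 12.3, 13.5 and 19.5 in jejunum. The lowest KO ratio was thus above the highest WT ratio, whatever the tissue. The pair was chosen after its values were seen, so no test is given. In colon each gene alone separated the genotypes, in opposite directions, so their ratio had to separate there too. Other ratios were also taken. Cd163 to Mrc1 was 0.602 to 1.39 in KO colon against 0.316 to 0.431 in WT colon. In jejunum it overlapped, with 0.364 to 0.738 in KO and 0.352 to 0.508 in WT. F13a1 to Mrc1 and Lyve1 to Mrc1 overlapped in both tissues. Across the 12 libraries the log2 levels of Cd163 and Folr2 had a Pearson r of -0.12, and after each value was centred on its group mean the r was 0.92. The libraries share depth and tissue, and the coefficients are given as a description. Fkbp5, a gene that glucocorticoids induce and that was also chosen after its values were seen, ran from 124.6 to 211.6 CPM in the KO libraries and from 22.0 to 63.0 in the WT libraries. Its part in the Cd163 and Folr2 values was not tested.

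**Figure D2:**
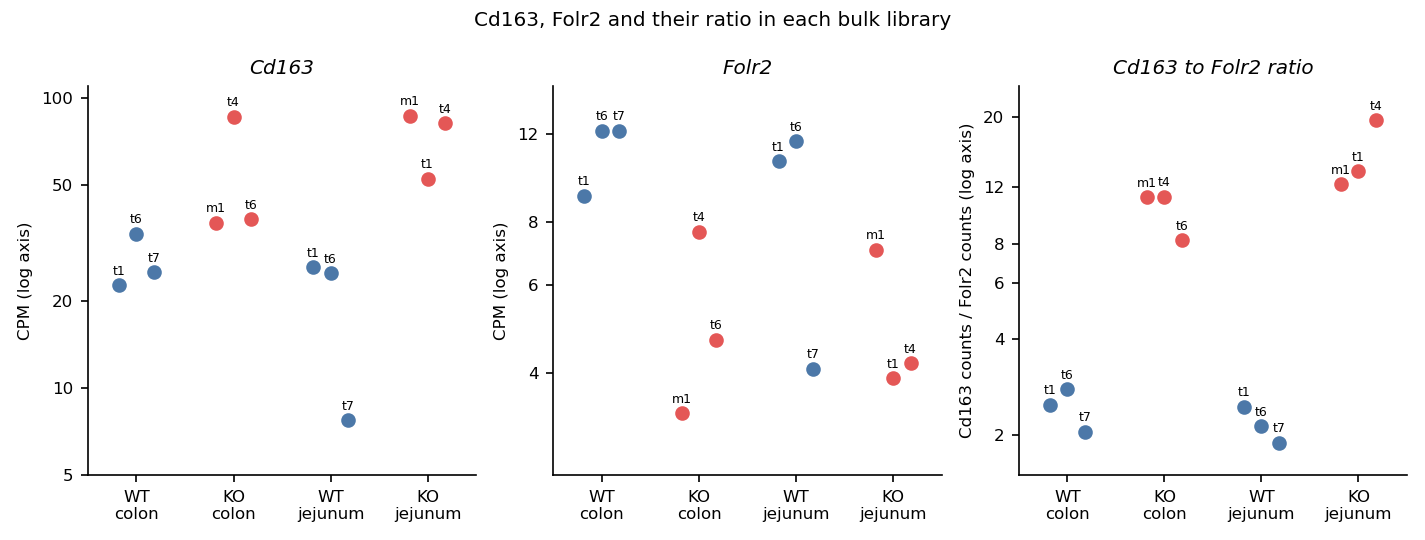
Cd163 and Folr2 in CPM, and the ratio of their counts, in the 12 bulk libraries (log axes, tags beside the points). Every ratio lay between 1.90 and 2.79 in the WT libraries and between 8.18 and 19.5 in the KO libraries, while Folr2 itself overlapped between the jejunum groups.

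For the other 4 macrophage genes (Mrc1, F13a1, Adgre1 and Lyve1) the genotypes did not overlap in jejunum and overlapped in colon. Mrc1 had 51.3, 51.8 and 21.9 CPM in WT jejunum and 238.9, 73.0 and 110.8 in KO jejunum, a 3.38-fold difference (log2 1.76, SE 0.59, edgeR adjusted p = 0.239). In colon it had 52.4, 91.6 and 79.3 CPM in WT and 61.6, 127.4 and 27.5 in KO, with a log2 fold change of -0.04 (SE 0.57). F13a1 was the most variable member. It had 27.2, 59.3 and 42.1 CPM in WT colon and 27.5, 287.1 and 11.9 in KO colon, and its fitted colon value of 1.34 (SE 0.98, edgeR adjusted p = 0.577) became -1.12 without KO colon t4. In jejunum F13a1 had 28.3, 31.5 and 13.1 CPM in WT and 176.3, 40.4 and 85.5 in KO (2.05, SE 1.0, edgeR adjusted p = 0.413). Without KO jejunum m1, the jejunum values of Mrc1 and F13a1 were 1.12 and 1.35. Adgre1 had 24.97, 27.0 and 10.4 CPM in WT jejunum and 62.7, 32.6 and 38.5 in KO jejunum, so these groups did not overlap (1.10, SE 0.57), whereas its colon groups did (-0.16, SE 0.56).

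Between the WT tissues, Lyve1, Mrc1 and Adgre1 had every colon library above every jejunum library, and Csf1 had the reverse. The log2 values for colon minus jejunum were 0.84 for Mrc1 (SE 0.57), 0.81 for Adgre1 (SE 0.57) and -0.47 for Csf1 (SE 0.29). Lyve1 had 84.4, 63.0 and 63.0 CPM in WT colon but 22.1, 31.6 and 4.80 in WT jejunum. This was the widest gap between WT tissues among the members (log2 1.85 for colon minus jejunum, SE 0.52, edgeR adjusted p = 0.130). In KO jejunum Lyve1 had 62.8, 36.2 and 37.6 CPM (1.22, SE 0.52, edgeR adjusted p = 0.345) and in KO colon 67.1, 82.1 and 105.8 (0.28, SE 0.51). Flt4, which encodes the VEGF-C receptor of lymphatic endothelium, was higher in WT colon than in WT jejunum as well (1.94, SE 0.38, edgeR adjusted p = 0.0301), with 66.3 to 108.5 against 10.6 to 36.6 CPM. It was the 1 gene of 5 tested lymphatic endothelial markers to pass in that comparison. Whether the lymphatic share of the tissue accounts for the Lyve1 values was not tested.

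No member passed the threshold of edgeR's quasi-likelihood test with Benjamini-Hochberg adjustment in any of 4 comparisons. In colon 0.388% of the 20886 genes tested passed, in jejunum 0.215%, between the WT tissues 1.56%, and none for the difference between the colon change and the jejunum change. At an unadjusted p under 0.05 there were 1 of 9 members in colon (14.5% of all genes), 4 of 9 in jejunum (13.2%), 1 of 9 for the difference of changes (4.16%) and 1 of 9 between WT tissues (13.1%). These were Folr2 in colon, Csf1r, Cd163, Mrc1 and Lyve1 in jejunum, Mrc1 for the difference of changes (log2 -1.80, SE 0.81, edgeR adjusted p = 0.941) and Lyve1 between WT tissues. DESeq2, which called 805 genes in jejunum (3.95% of those it tested) where edgeR called 45, passed Cd163 (adjusted p = 0.00365), Mrc1 (adjusted p = 0.0469) and Csf1r (adjusted p = 0.0484) there, and Lyve1 between the WT tissues (adjusted p = 0.0109, where it called 5.58% of genes). It passed no member in colon, where it called 5.01% of genes, nor for the difference of changes (0.178%). limma voom passed no member in any comparison. By the order of the values alone, 6 of 9 members in jejunum had every KO library above every WT library and 1 of 9 had the reverse, against 11% and 11.2% of all genes. In colon these numbers were 1 and 1 of 9, against 8.79% and 10.4%. With whole tissue, more macrophages and more RNA of these genes per macrophage cannot be told apart.

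**Figure D3:**
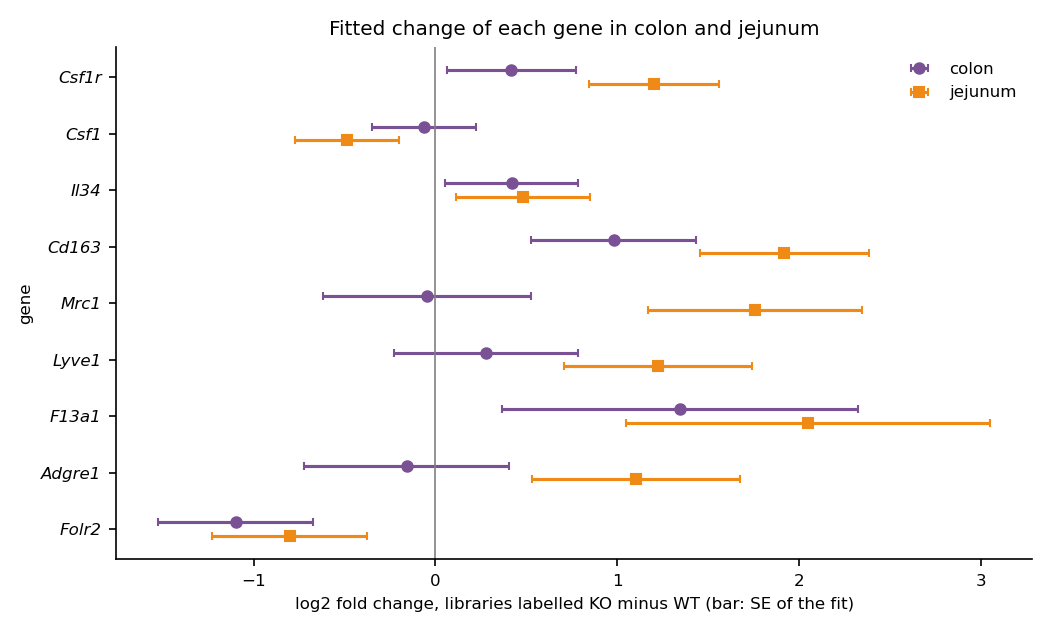
Fitted log2 fold change, KO minus WT, of each gene in colon (circles) and jejunum (squares), with the SE of the edgeR fit as bars. Folr2 lay below 0 in both tissues (-1.10 and -0.80), Cd163 above it in both (0.98 and 1.92), and Mrc1 at -0.04 in colon but 1.76 in jejunum.

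Per kb of exon, the order of the levels also differed between the groups. In WT colon Lyve1 came first with 24.0 ± 4.24 CPM per kb (SD, n = 3), followed by Csf1r with 16.8 ± 3.05. Csf1 (12.6 ± 1.94), Mrc1 (11.7 ± 3.14) and Adgre1 (11.2 ± 2.35) came next and differed by less than their SDs. Folr2 (7.22 ± 1.18), F13a1 (6.36 ± 2.38) and Cd163 (4.99 ± 1.10) likewise formed a run of neighbours within their spread. In WT jejunum Csf1 led with 17.4 ± 2.01 CPM per kb, ahead of Csf1r with 11.7 ± 2.78, and Lyve1, Mrc1, Adgre1 and Folr2 lay between 5.67 and 6.67, closer than their SDs. In KO jejunum Csf1r led with 26.9 ± 7.86 and Folr2, at 3.27 ± 1.13, was next to last, above Il34.

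Across the 12 libraries the genes most like the mean of the 7 macrophage members (Csf1r included), by Pearson r of log2 CPM among 14272 genes, were Nrros (0.98), Ccl9 (0.97), C3ar1 (0.96), Dock2 (0.96) and Ccl6 (0.96). C3ar1 encodes a receptor of complement C3a and Ccl9 and Ccl6 are chemokines. Nrros, which encodes a protein that holds latent TGF-beta on myeloid cells, had 7.47 to 31.6 CPM in KO colon and 15.7 to 18.5 in WT colon, and 13.7 to 26.5 in KO jejunum and 4.02 to 13.3 in WT jejunum. The genes most like Csf1 were Pcgf3 (0.96), Smarcc1 (0.92) and Cand1 (0.92), and those most like Il34 were Gpr137b (0.91), Ramp2 (0.90) and Qdpr (0.89). The first places did not depend on the prior count, but after centring on group means the macrophage members were closest to Lrrc25, Ccl9, C3ar1, Lyz2 and Gmfg, Csf1 was closest to Rnf111, Slx4 and Gm26603, and Il34 to Cd83, Zap70 and Hs3st3b1. Csf1 and Il34 themselves had an r of -0.79, and -0.71 after centring. All of these describe 12 libraries that share groups and composition.

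The other genes of the pathway and the lineage were counted in the same fit. Of 13 cytoplasmic partners of CSF1R, 11 had positive log2 fold changes in colon and 11 in jejunum (50.3% and 51.5% of all genes), with medians of 0.52 and 1.12 against 0.00 and 0.02 over all genes, and none passed. Inpp5d, the SHIP1 phosphatase that limits this signal, had 17.5 to 24.7 CPM in WT colon against 28.7 to 86.9 in KO colon, and 5.46 to 14.6 in WT jejunum against 36.0 to 50.2 in KO jejunum. Its log2 fold changes were 1.29 (SE 0.42, edgeR adjusted p = 0.200) and 1.99 (SE 0.43, edgeR adjusted p = 0.0956). Of 8 macrophage transcription factors, Cebpb rose in colon and was the only one to pass, with 34.6 to 40.3 CPM in WT against 108.8 to 270.1 in KO (2.15, SE 0.39, edgeR adjusted p = 0.0433). Cebpb is not confined to macrophages. In jejunum it had 37.5 to 80.8 CPM in WT and 83.4 to 134.6 in KO (1.11, SE 0.37, edgeR adjusted p = 0.237). Of 5 genes of the exchange between macrophages and neurons, Bmpr1a, a BMP receptor gene, fell in colon, from 205.1 to 248.2 CPM in WT to 99.1 to 136.3 in KO (-0.89, SE 0.17, edgeR adjusted p = 0.0499). This is a whole-tissue value, so the cells in which Bmpr1a fell are not known. With only the colon libraries in the fit 0 genes passed in colon, so the calls of Cebpb and Bmpr1a were both lost. Among all genes, 81 passed in colon with all 12 libraries and between 7 (without KO colon t6) and 180 (without KO colon m1) with 1 library left out.

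Ptprz1, a second receptor for IL-34 that glia carry, had the opposite order in the tissues. It had 104.5 to 176.5 CPM in WT colon against 51.2 to 73.0 in KO colon (log2 -1.29, SE 0.34, edgeR adjusted p = 0.135), and 13.2 to 19.4 in WT jejunum against 21.2 to 61.0 in KO jejunum (1.24, SE 0.34, edgeR adjusted p = 0.166). Neither tissue's groups overlapped, and the difference of the changes was -2.53 (SE 0.48, unadjusted p = 0.000242 and edgeR adjusted p = 0.723). Ptprz1 was higher in WT colon than in WT jejunum (3.07, SE 0.36, edgeR adjusted p = 0.00364).

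Of 21 other macrophage genes, 21 had positive log2 fold changes in jejunum (median 1.70 against 0.02 over all genes), 14 of them at an unadjusted p under 0.05 (7.52% of all genes were higher at that p), and none passed. In colon 16 of 21 were positive with a median of 0.49. C1qa, a complement gene typical of macrophages, had 59.3, 76.5 and 26.4 CPM in WT jejunum and 303.9, 111.5 and 150.3 in KO jejunum (1.80, SE 0.44, edgeR adjusted p = 0.127). The 13 further genes of resident macrophages did not share this direction. Their median was -0.75 in colon, with 5 positive, and -0.17 in jejunum, with 6 positive, and none passed in either. In colon 5 of the 13 were below an unadjusted p of 0.05 and lower in KO, against 7.79% of all genes, and in each of the 5 every KO library lay below every WT library. They were Cd209f, Cd209g, Mgl2, Timd4 and Cbr2. Mgl2, a galactose lectin, had 12.1, 13.9 and 15.1 CPM in WT colon and 5.43, 0.798 and 0.886 in KO colon (-2.52, SE 0.76, edgeR adjusted p = 0.176), and Cd209f, a C-type lectin, had 2.72, 4.04 and 4.68 in WT colon and 1.43, 0.416 and 0.101 in KO colon (-2.53, SE 0.79, edgeR adjusted p = 0.188).

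Genes of other blood-derived cells were also higher in some of the same libraries. Of 8 monocyte genes, 8 were positive in jejunum (median 2.48) and 6 in colon (median 1.56), and Chil3 had 111.6, 1.15 and 50.9 CPM in KO jejunum against at most 0.757 in WT jejunum. Summed monocyte genes had 86.9 to 394.9 CPM in KO jejunum and 57.6 to 65.0 in WT jejunum. The 6 neutrophil genes summed to 14.5 to 43.0 CPM in KO jejunum and 6.15 to 16.3 in WT jejunum. Genes of dendritic cells and MHC class II were positive for 0 of 10 in colon (median -1.38) and 8 of 10 in jejunum (median 0.32), and none passed. The part of these cells in the values of the members was not tested. Without KO colon t4 and KO jejunum m1, a comparison chosen after seeing the data, no member passed either.

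Nuclei of the colon placed the members in cell classes. The classes were built without the 9 genes and named from other markers, with 3090 nuclei from the WT library and 1837 from the KO library after filtering. All nuclei of a class are pooled here, and intervals are exact Poisson intervals that cover counting error only. Macrophage-like nuclei, 274 in all, had 13 of 15 fixed macrophage markers raised, and their leading genes included Sirpb1a, Clec4a3, Csf3r and Msr1. They held 74.0% of all unique molecular identifiers (UMIs) of Adgre1, 67.9% of those of Mrc1, 62.6% of F13a1, 56.5% of Cd163 and 38.1% of Csf1r. The 4 unnamed clusters, with 498 nuclei that included the deepest ones and carried markers of several cell types, held between 17.5% (Mrc1) and 27.9% (Csf1r) of the UMIs of these genes. Smooth muscle-like nuclei, which should lack these genes, gave 1.19 UMIs of Csf1r per 1000000 UMIs of the class (UPM below) against 224.9 in macrophage-like nuclei, and 5.64 against 1649 of Mrc1. Mesothelial-like nuclei had 52 UMIs of Csf1r, or 35.9 UPM (95% interval 26.8 to 47.1).

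Lyve1 was highest, in UPM, in lymphatic endothelial-like nuclei. Of all its UMIs, the lymphatic class held 21.6% and the unnamed clusters 30.2%. Lymphatic endothelial-like nuclei, 89 in all, had 53 UMIs or 453.5 UPM (339.7 to 593.2), against 32.9 (17.0 to 57.5) in macrophage-like nuclei and 9.79 in smooth muscle-like nuclei. Mrc1 was also present in the lymphatic class, with 19 UMIs. Folr2 had 18 UMIs among all nuclei and 2 in macrophage-like nuclei, so its cell of origin could not be placed at this depth.

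Most UMIs of the ligands lay outside the macrophage-like nuclei. Csf1 had 517 UMIs, of which mesothelial-like nuclei, the lining of the outer surface, held 34.6%, at 123.7 UPM (106.2 to 143.2). The unnamed clusters held 23.6% of the Csf1 UMIs. Fibroblast-like nuclei had 49.3 UPM (33.7 to 69.5), enteric glia-like nuclei 35.9 (27.4 to 46.2), enteric neuron-like nuclei 25.2 (18.7 to 33.3), macrophage-like nuclei 24.7 (11.3 to 46.9) and smooth muscle-like nuclei 10.1 (6.98 to 14.1). The intervals of the middle 4 overlapped in neighbouring pairs, whereas that of the mesothelial class lay above all of them. In the single libraries the mesothelial level was 101.4 UPM (77.4 to 130.5) in WT and 139.1 (115.3 to 166.5) in KO. Il34 was sparser, with 124 UMIs, of which the unnamed clusters held 33.9%. In 1 of the glia-like clusters, led by Rasgef1c and Aspa, it had 76.0 UPM (43.5 to 123.4) from 16 UMIs, against 6.15 (2.81 to 11.7) in the larger glia-like cluster. By library, that cluster had 41.2 UPM (15.1 to 89.7) in WT from 6 UMIs and 154.2 (74.0 to 283.7) in KO from 10. Fibroblast-like nuclei led by Ccn5 and Cilp had 40.8 UPM (20.4 to 73.0) over both libraries, 57.5 (15.7 to 147.2) in WT and 34.98 (14.1 to 72.1) in KO. The glia-like cluster was thus above the fibroblast-like one in KO only, and in WT their intervals overlapped. Smooth muscle-like nuclei had 4.15 UPM (2.27 to 6.97).

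**Figure D4:**
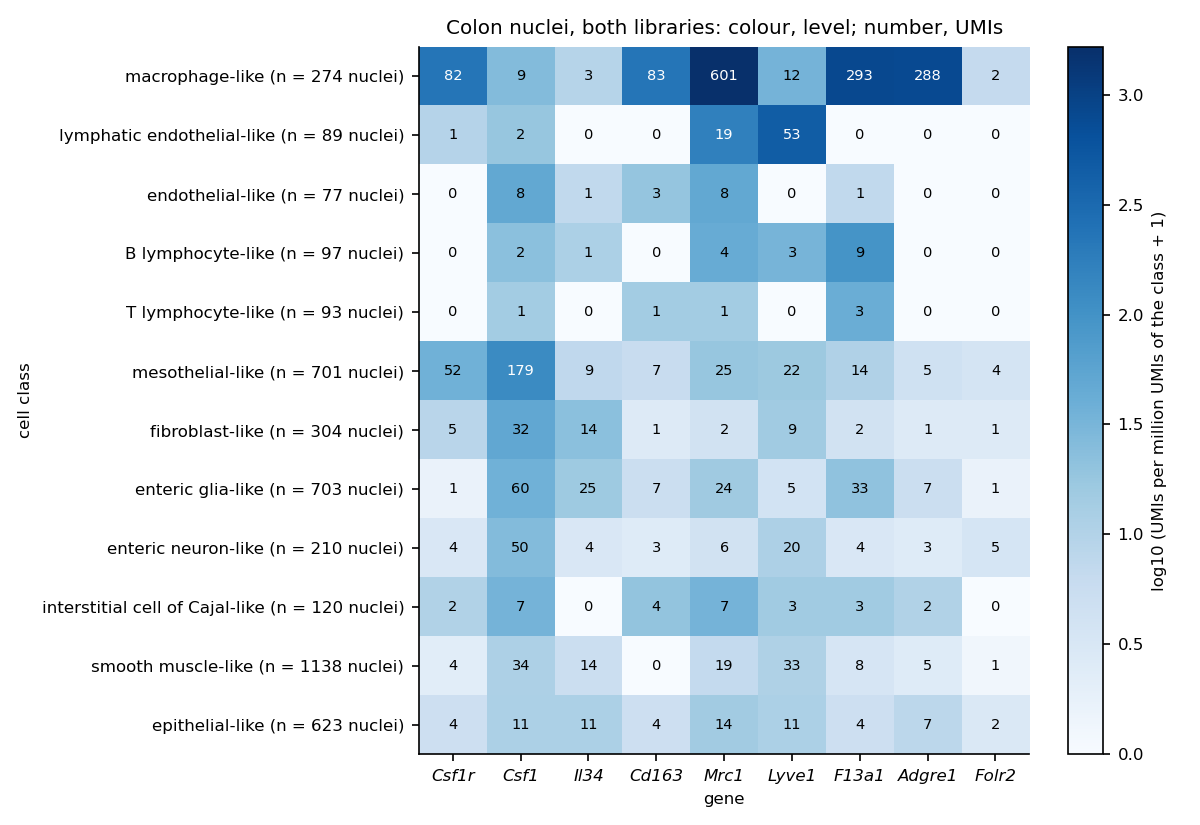
Levels of the 9 genes (columns) in 12 named cell classes of colon nuclei (rows), both libraries pooled. Colour gives log10 of UPM plus 1 and the numbers are UMIs. Csf1 was highest in mesothelial-like nuclei (179 UMIs), Lyve1 in lymphatic endothelial-like nuclei (53 UMIs) and Csf1r, Cd163, Mrc1, F13a1 and Adgre1 in macrophage-like nuclei.

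Macrophage-like nuclei were 75 of 3090 in the WT library, 2.43% (exact binomial 95% interval 1.91 to 3.03), and 199 of 1837 in the KO library, 10.8% (9.45 to 12.3). With 1 library per genotype there is no test of this difference, and genotype and preparation cannot be told apart. T lymphocyte-like nuclei were 0.874% in WT and 3.59% in KO, and B lymphocyte-like nuclei 1.04% and 3.54%. In bulk colon the lymphocyte markers had a median log2 fold change of -0.17, with 4 of 10 positive. Bulk colon values were -0.04 for Mrc1, -0.16 for Adgre1, 0.42 for Csf1r, 0.98 for Cd163 and 1.34 for F13a1, and none passed. Of the immune nuclei (macrophage-like, T and B lymphocyte-like), macrophage-like nuclei made up 56.0% in WT and 60.3% in KO. Median depth was 689 UMIs per macrophage-like nucleus in WT and 785 in KO. Smooth muscle genes, which can enter as free RNA, gave 4393 UPM in WT macrophage-like nuclei and 1858 in KO. The 6 neutrophil genes gave 0 UMIs in both. The Colec10/Shisa6 smooth muscle-like cluster made up 12.4% of WT and 2.29% of KO nuclei. Markers of other cells did not all fall. Fibroblast markers gave 1931 and 2097 UPM, enteric glia 510 and 610, interstitial cells of Cajal 423 and 676, and mesothelium 781 and 683. A difference in free RNA between the libraries was not tested. The class also held dendritic cell and MHC class II genes, at 2267 UPM in WT and 2556 in KO. Its 8 monocyte genes gave 336.2 UPM in WT and 514.1 in KO, of which Ccr2 gave 260.3 and 356.2. Monocytes and dendritic cells may thus be part of the class, and their part in its share and levels was not tested.

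In UPM of the macrophage-like nuclei, Mrc1 had 759.3 (591.9 to 959.3) in WT and 1950 (1787 to 2123) in KO, F13a1 had 238.6 (149.5 to 361.3) and 995.1 (880.1 to 1121), and Cd163 had 65.1 (23.9 to 141.6) and 282.7 (223.1 to 353.4). The KO to WT ratios were 2.57 (1.999 to 3.34) for Mrc1, 4.17 (2.70 to 6.77) for F13a1 and 4.34 (1.91 to 12.2) for Cd163. Adgre1 had a ratio of 1.69 (1.24 to 2.36) and Csf1r 1.29 (0.750 to 2.36). These intervals cover the counting of UMIs only, and UMIs were clustered within nuclei: the 77 Cd163 UMIs of the KO library came from 15 nuclei, and the 271 of F13a1 from 66. In the WT library the 6 Cd163 UMIs came from 4 nuclei, and the 22 of F13a1 from 11. Higher levels in KO were not confined to the members. Summed over the macrophage-like nuclei, the list of 21 other macrophage genes gave 3558 UPM in WT and 5328 in KO. The list of 13 further resident macrophage genes gave 520.6 and 525.1. The share of macrophage-like nuclei with a Cd163 UMI was 5.33% in WT (exact binomial interval 1.47 to 13.1) and 7.54% in KO (4.28 to 12.1), which overlap. For Adgre1 the shares were 38.7% (27.6 to 50.6) and 50.3% (43.1 to 57.4), and for Mrc1 49.3% (37.6 to 61.1) and 62.3% (55.2 to 69.1), which overlap as well. Those of Csf1r, 21.3% (12.7 to 32.3) and 22.1% (16.5 to 28.5), also overlap. For F13a1 they were 14.7% (7.56 to 24.7) in WT and 33.2% (26.7 to 40.2) in KO, which do not overlap. Nuclei of 1 library are not replicates, so these intervals too cover counting error only. The Mrc1 shares compare with 0.810% and 2.77% of smooth muscle-like nuclei, whose median depths were 1954 and 2422 UMIs. Lyve1 had 0 UMIs in WT, whose exact interval reaches 40.01 UPM (3 UMIs would be 32.5), and 12 in KO (44.1 UPM), while Folr2 had 2 in WT and 0 in KO, whose exact interval reaches 13.5 UPM (3 UMIs would be 11.02). Of the 7 macrophage members, a single nucleus carried UMIs of at most 4 in WT and 6 in KO, and 28.0% of the WT and 18.1% of the KO macrophage-like nuclei carried none.

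**Figure D5:**
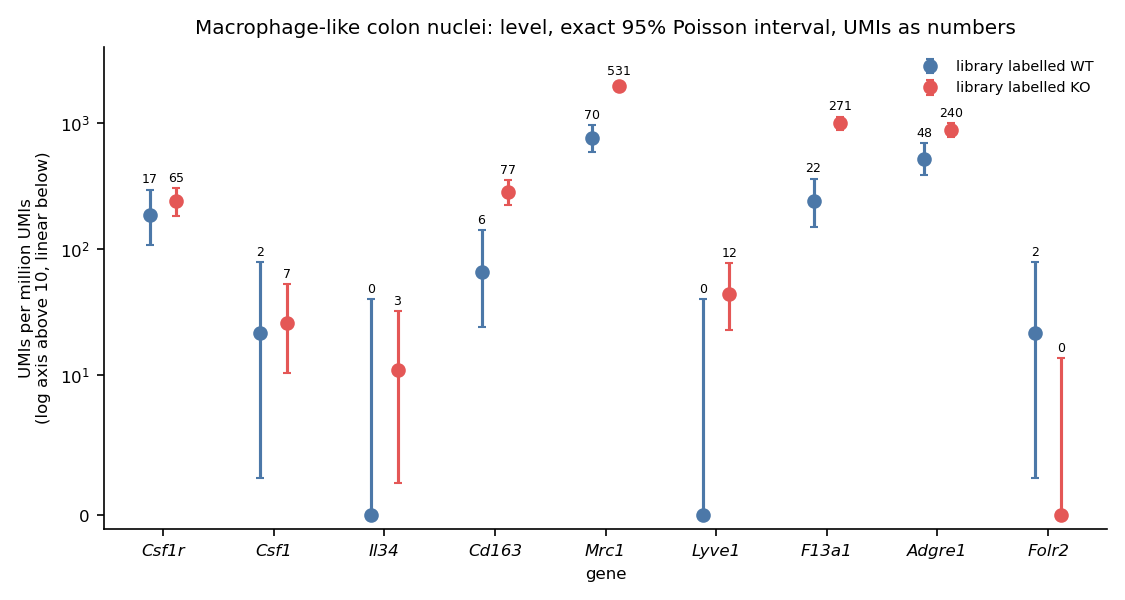
UPM in macrophage-like colon nuclei of the WT and KO libraries for each of the 9 genes (y axis logarithmic above 10 and linear below), with exact 95% Poisson intervals and the UMIs as numbers. The intervals cover counting error of UMIs only, and the UMIs of Cd163 in KO (77) came from 15 nuclei.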

How the data were processed

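The bulk data are raw counts, which the authors deposited as 1 table of all 12 libraries. The submitters' processing notes name STAR 2.0.4b, featureCounts 1.4.5, edgeR and the builds GRCm38 and mm10, with no role or order given. After 276 repeated identifiers were dropped, 40481 genes were left, of which 20886 passed filterByExpr. edgeR 4.0.16 (quasi-likelihood, robust, TMM) was fitted to all 12 libraries with group means only and contrasts of groups, and p-values were adjusted over all genes tested (threshold 0.05). The SE is the log2 fold change over the root of F. CPM per kb divides by the exon length in GENCODE M21 (GRCm38), the source of gene coordinates. DESeq2 1.42.0 and limma 3.58.1 (voom) were alternatives. No 2 libraries of a group agreed within sampling noise (mean chi-square per gene at least 51.7). The fit was tested on simulated counts.

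For each nuclei library the authors deposited a matrix of counts over genes and regions from cellranger-arc 2.0.0, per the file headers and the submitters' processing notes. All gene values were even and were divided by 2 to give UMIs, an inference from the values. Barcodes with at least 200 genes and at most 5% mitochondrial UMIs were clustered in scanpy 1.11.5 (2000 variable genes, 30 components, Leiden resolution 1) without the 9 genes, giving 25 clusters, 4 of them unnamed. Names rest on these clusters and markers, not on the authors' annotation. The doublet caller marked only 2 and 1 nuclei, so almost none were removed and doublets probably remain. Their rate was not measured. The libraries shared 11 barcodes.

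Members and gene lists were chosen with earlier results of these data known. All 9 members are named. From each list, the genes past the threshold in any comparison are candidates for naming, or else the 2 of smallest p, and beyond these Timd4, Cbr2, Cd209g and Fkbp5 are named after their values were seen. The 5 genes most like the macrophage members, and 3 each for Csf1 and Il34, were ranked among genes with a mean log2 CPM of at least 1 (prior count 2).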

Additional observations from a re-analysis of the deposited data

How the results depend on the processing

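The number of members past the threshold was 0 in every comparison under each alternative for the bulk data (limma voom, other scalings and filters, fewer libraries) except DESeq2, which called 3 in jejunum and 1 between WT tissues. All 12 libraries left out in turn gave 0 members called each time. Each tissue had 198 values of single members under the alternatives, of which 195 in jejunum and 187 in colon kept their direction and their side of the threshold. Jejunum had no reversal, and colon had 11. Leaving out 1 library moved the colon log2 fold change of Csf1r between -0.13 and 0.71, of Csf1 between -0.41 and 0.21, of Mrc1 between -0.74 and 0.38, of F13a1 between -1.12 and 1.92 and of Adgre1 between -0.98 and 0.31, where KO t4 set the lowest F13a1 and Csf1r values and KO t6 the highest Mrc1, Csf1 and Adgre1 values. It moved the difference of changes of Il34 between -0.29 and 0.19, of F13a1 between -3.17 and 0.038 and of Folr2 between -0.68 and 0.084, and Folr2 between WT tissues between -0.051 and 0.55. Scaling by total counts gave 0.00185 for the Il34 difference. Without KO colon t4 and KO jejunum m1, which was chosen after seeing the data, colon Csf1r was -0.12 and F13a1 -1.11, and the differences were -0.092 for Csf1 and 0.33 for Il34. The cause of these reversals was not tested, beyond the libraries left out.

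Libraries of a genotype share tags between tissues. The deviations of same-tag libraries had correlations of -0.16 and -0.09 (KO) and 0.10, -0.01 and 0.06 (WT). These values gave no sign of pairing by tag, but with so few libraries per group they cannot exclude it. With the tag as a replicate block, 0 members passed in any comparison. Among all genes, the count in colon was 81 with edgeR, 960 with DESeq2 and 0 with only colon libraries, and in jejunum 45, 805 and 21. Other counts in jejunum were 76 with voom, 26 with total-count scaling, 72 with edgeR's newer method and 77 with the block, and 325, 1160 and, with the block, 29 between WT tissues.

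The share of macrophage-like nuclei was 1.34% in WT and 7.36% in KO with at least 500 genes per nucleus, and 1.30% and 6.38% among nuclei thinned to 1000 UMIs (26 and 78 macrophage-like nuclei). With at least 500 genes per nucleus, Cd163 had 0 UMIs per 1000000 in WT and 368.0 in KO macrophage-like nuclei, so no ratio can be given there. Without the highest 8% of doublet scores, chosen after seeing the data, Mrc1 was at 1051 UMIs per 1000000 in WT and 2915 in KO macrophage-like nuclei. Folr2, Il34 and Lyve1 in macrophage-like nuclei, at 12 UMIs or fewer, are at the limit of this depth.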
